A study of Mus musculus with 4 samples.

Results

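The angiopoietin, Tie and apelin genes were followed through single-cell libraries of regenerating mouse digits. There were 8 of them among the 33696 genes listed, and they were taken by gene symbol: Angpt1, Angpt2, Angptl4, Tek, Tie1, Apln, Aplnr and Esm1. All 8 had unique molecular identifier (UMI) counts in every library. Their Ensembl identifiers in the gene lists were ENSMUSG00000022309 (Angpt1), ENSMUSG00000031465 (Angpt2), ENSMUSG00000002289 (Angptl4), ENSMUSG00000006386 (Tek), ENSMUSG00000033191 (Tie1), ENSMUSG00000037010 (Apln), ENSMUSG00000044338 (Aplnr) and ENSMUSG00000042379 (Esm1). Angiopoietins are secreted ligands of the endothelial receptor Tie2, which Tek encodes, and Tie1 is a related receptor that modulates Tie2. Angpt1 is mostly made by perivascular and mesenchymal cells and keeps vessels quiet, whereas Angpt2 is released by endothelial and mural cells and can oppose it. Apelin (Apln) and its receptor Aplnr act in growing vessels and veins, Esm1 encodes a secreted proteoglycan known from endothelial tip cells, and Angptl4 encodes a lipase inhibitor that answers to fatty acids and low oxygen.

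The libraries came from female C57BL/6 mice of 6 to 8 weeks, and each held hindlimb digits 2 to 4 pooled from 10 mice. The tip of the terminal phalanx (P3) had been amputated on digits 2 and 4, so that digit 3 entered the pools without an amputation of its own. Mice in the SAR131675 library ate chow with 30 mg/kg of this VEGFR3 inhibitor, and those in the control diet library ate the matching chow, for 8 days by the design text of the series. The study's methods start the chow before the amputation and its text and a legend differ on the day of collection, so that the time after amputation is left out here. The LNR library came from limbs after lymph node removal (LNR), and the sham library from the contralateral limbs, which the labels list without a treatment. Each condition had 1 library and each library was a batch of its own, so that batch and condition cannot be told apart, no comparison between conditions has a replicate check, and no p-value is given.

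The libraries held 168507188 to 585284877 UMIs over 21669 to 38464 barcodes, and 19827 to 29076 cells per library passed the limits on genes, UMIs and mitochondrial UMIs. Both libraries of the SAR131675 pair were deeper, with medians of 11316 and 10712 UMIs per cell, than those of the LNR pair, with 5725 and 5851. The SAR131675 and control diet libraries shared 348 barcodes, 1.13% of the smaller library, and LNR and sham shared 130, or 0.6%. Levels are UMIs of a gene scaled to the summed UMIs of a cell class (CPM), always in the order SAR131675, control diet, LNR and sham. They come from the 3' ends of transcripts and are not compared between genes. All intervals are exact at 95%, count each UMI or cell as independent and therefore hold counting error alone.

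Cells were clustered within each pair without the 8 genes, and clusters were named by marker genes. Blood endothelial (BEC-like) clusters were led by genes such as Fabp4, Selp, Pecam1 and Flt1 and held 785, 647, 736 and 777 cells. When these cells were clustered once more, 507, 419, 344 and 328 of them lay outside groups led by markers of other cell types. In the LNR pair most BEC-like cells were therefore in groups led by such markers. Lymphatic endothelial (LEC-like) clusters were led by Ccl21a, Mmrn1 and Reln and held 243, 252, 215 and 209 cells. Mesenchymal cells below are the fibroblast, osteoblast, tendon, joint and dermal papilla clusters together. The 7 BEC markers summed to 4802 to 7474 CPM in BEC-like cells and to 2031 to 2340 CPM in LEC-like cells. RNA of other cell types was also counted in the BEC-like clusters, where fibroblast markers summed to 426, 173, 1229 and 1197 CPM, pericyte markers to 712, 815, 1317 and 1431 CPM, basal keratinocyte markers to 1567, 1237, 2021 and 2385 CPM, and red cell markers to 593, 1397, 1045 and 77.8 CPM. Every marker of these lists was above 0 there, and their part in the results below was not tested except where a value without such cells is given.

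The receptors marked the endothelium in different ways. Tek was counted at 394, 382, 143 and 134 CPM in BEC-like cells and at 174, 129, 86.4 and 62.1 CPM in LEC-like cells, so that the blood endothelium was higher in every library. Tie1 was counted at 122, 140, 148 and 130 CPM in BEC-like cells and at 159, 162, 333 and 266 CPM in LEC-like cells, so that the lymphatic endothelium was higher in every library. Mural cells, the pericytes and smooth muscle cells around vessels, were nearly without either receptor, at 1.31 to 4.19 CPM for Tek and at most 1.14 CPM for Tie1. BEC-like cells held 54.2% to 75.6% of all Tie1 UMIs of a library and LEC-like cells 21% to 36.9%. For Tek, BEC-like cells held 41.3% to 53.3%, LEC-like cells 5.02% to 7.63% and mesenchymal cells another 36.6% to 42.2%.

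**Figure D1:**
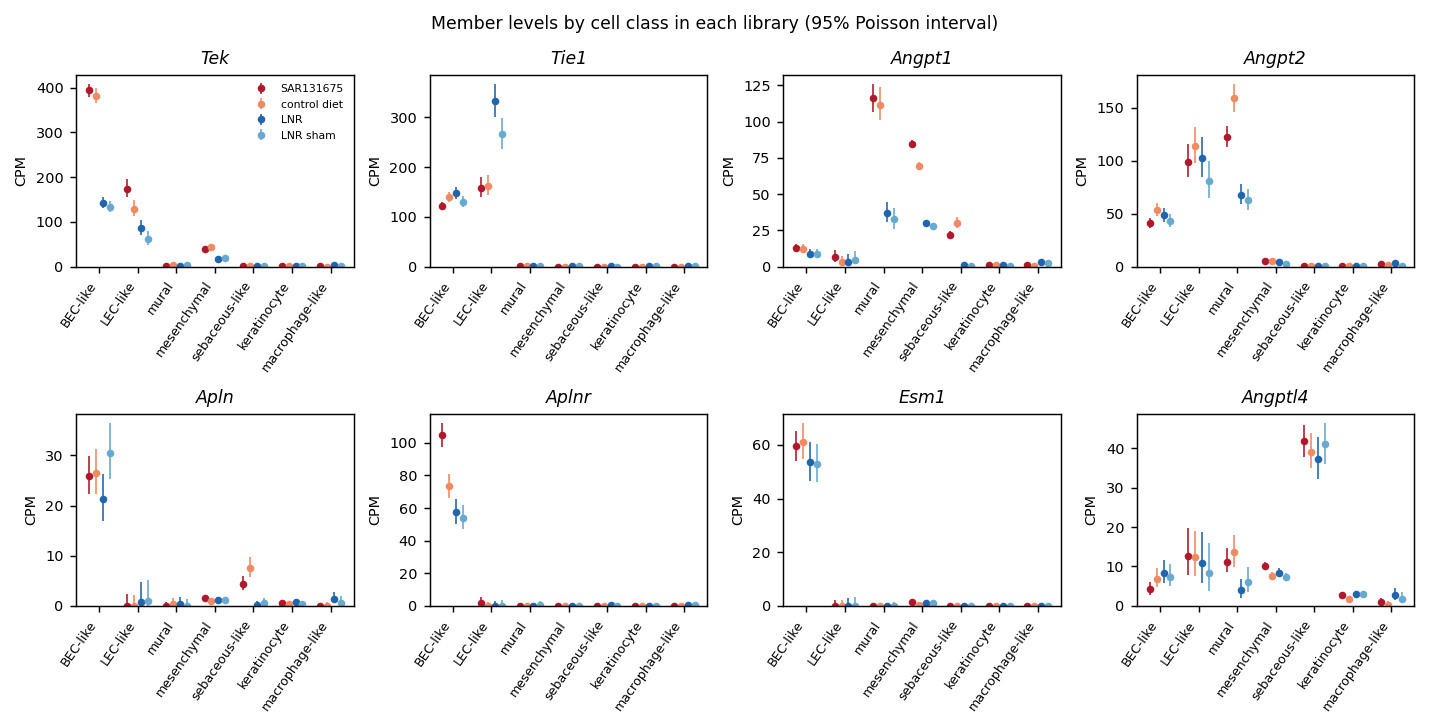
Level of each of the 8 genes in CPM (vertical axes, 1 panel per gene) in 7 cell classes, with a point per library and bars for 95% Poisson intervals. Tek, Tie1, Apln, Aplnr and Esm1 were led by an endothelial class, Angpt1 and Angpt2 were also high in mural cells, and Angptl4 was led by sebaceous-like cells.

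The receptor and ligand of the apelin pathway lay in the same class. Aplnr was counted at 105, 73.3, 57.8 and 54.2 CPM in BEC-like cells, which held 89.4% to 96% of its UMIs. Its ligand Apln was counted at 25.9, 26.6, 21.3 and 30.6 CPM in BEC-like cells, which held 41.4% to 57.2% of its UMIs. Much of the rest of Apln was spread over abundant cells at low levels, with 15.8% to 27.9% in keratinocytes and 11.9% to 17.9% in mesenchymal cells. Sebaceous-like cells held 0.526% to 17.5%. Their Apln level was 4.44 and 7.63 CPM in the SAR131675 pair and 0.188 and 0.648 CPM in the LNR pair, values that are not compared. The sebaceous-like clusters of the pairs differed in make-up, with basal keratinocyte markers at 5333, 5131, 2958 and 3182 CPM. In the LNR pair a separate basal keratinocyte cluster led by Akr1c18 stood at 6.13 and 3.41 CPM of Apln. Esm1 was counted at 59.5, 61.2, 53.5 and 52.9 CPM in BEC-like cells, which held 83.3% to 91.6% of its UMIs. For Apln, Aplnr and Esm1, BEC-like cells stood above the next class in all 4 libraries with intervals that did not meet.

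The ligands of Tie2 were highest outside the blood endothelium. Angpt1 reached 116, 112, 37.0 and 32.7 CPM in mural cells and 84.6, 69.4, 30.0 and 27.8 CPM in mesenchymal cells, and the interval of mural cells lay above that of mesenchymal cells in 2 of 4 libraries. Since mesenchymal cells were far more numerous, they held 66.5% to 77.8% of all Angpt1 UMIs. A fibroblast cluster led by Pi16, Clec3b and Myoc alone held 52.3%, 52.7%, 33.6% and 33.1% of Angpt1 UMIs, at 122, 93.9, 51.3 and 48.8 CPM. BEC-like cells were at 8.69 to 13 CPM of Angpt1, and in the SAR131675 pair 64 of 96 and 32 of 65 of these UMIs lay in a group led by the pericyte marker Rgs5.

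Angpt2 was shared by vessel wall and endothelium. It stood at 123, 159, 68.0 and 62.8 CPM in mural cells, at 99.3, 114, 102 and 81.0 CPM in LEC-like cells and at 41.2, 53.5, 48.4 and 43.2 CPM in BEC-like cells. LEC-like and mural cells changed places between libraries, with mural cells higher in the SAR131675 pair and LEC-like cells higher in the LNR pair. Both stood above BEC-like cells in every library, for mural cells with intervals that did not meet. Mesenchymal cells were at 2.82 to 5.27 CPM.

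Angptl4 had the pattern least tied to vessels. Sebaceous-like cells, the lipid-producing gland cells of skin, stood at 41.7, 39.2, 37.3 and 41.0 CPM, above LEC-like cells at 12.7, 12.3, 10.9 and 8.47 CPM with intervals that did not meet in any library. An Angptl4 UMI was found in 23.8%, 18.6%, 38.6% and 39.8% of sebaceous-like cells. The cells were not brought to equal depth for these shares, which are therefore not compared between libraries. In the LNR pair an osteoblast cluster led by Mmp13 reached a like level, with 46.5 CPM in LNR and 42.8 CPM in sham, and a basal keratinocyte cluster led by Akr1c18 stood at 23.2 and 30.7 CPM. In BEC-like cells Angptl4 was at 4.2 to 8.37 CPM. The separate intervals of the LEC-like and mural levels overlapped in every library, also in LNR, where the levels were 10.9 and 3.93 CPM. No ratio between these classes was taken.

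Tek in mesenchymal cells came largely from the fibroblast cluster that was also rich in Angpt1. In the cluster led by Pi16, Clec3b and Myoc, Tek stood at 76.5, 79.3, 49.7 and 53.9 CPM, which was 19.4%, 20.8%, 34.7% and 40.2% of the BEC-like level. Tie1 had 3, 1, 4 and 2 UMIs in the same cells and stood at 0.034% to 0.318% of its BEC-like level. The 7 BEC markers Pecam1, Cdh5, Emcn, Egfl7, Plvap, Vwf and Flt1 stood at 0.0476% to 1.24% of theirs. A Tek UMI was found in 30.6%, 31.0%, 16.3% and 17.0% of these fibroblasts, whereas keratinocytes had one in 0.31% to 0.843% of cells at median depths of 7973 to 12790 UMIs. Keratinocyte clusters differed, with Tek in the SAR131675 pair at 4.28 and 2.92 CPM in one led by Lgr5 and at 0.51 and 0.43 CPM in one led by Tspear. The source of these UMIs was not tested. In fibroblasts without a UMI of 6 of the BEC markers, which were 1970, 1930, 1921 and 1718 cells, Tek was at 86.2, 86.3, 51.8 and 55.8 CPM and these cells held 86.6% to 96.5% of the cluster's Tek UMIs. Leaving out cells with a UMI of these 6 markers did not lower the Tek level in any library, and the source of Tek in these fibroblasts was not tested.

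**Figure D2:**
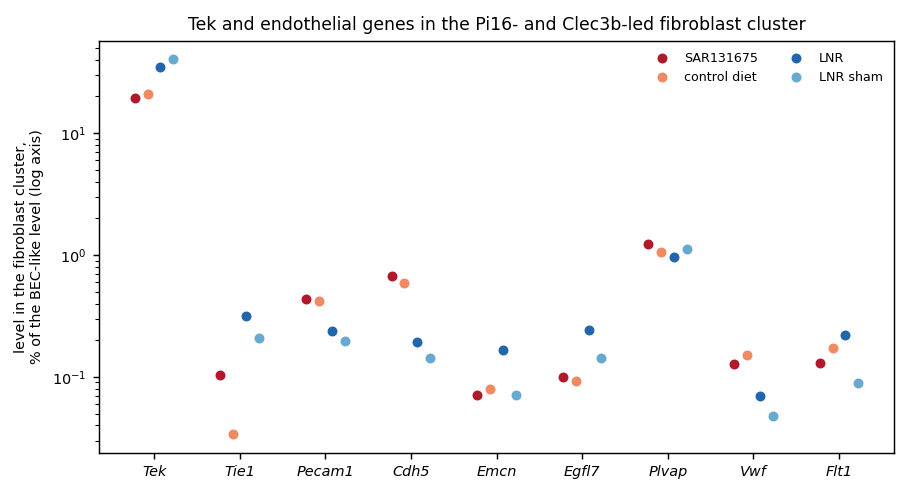
Level in the Pi16 and Clec3b fibroblast cluster as a percent of the BEC-like level of the same gene and library (vertical log axis), for Tek, Tie1 and 7 BEC markers, with a point per library. Tek lies between 19.4% and 40.2%, and every other gene at or below 1.24%.

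The promoters of the 2 Tie receptor genes are shown because their transcripts parted in these fibroblasts. RefSeq promoter sequences on GRCm38.p6 were at hand for 4 of the 8 genes (Tek, Tie1, Apln and Esm1), and the 250 bases before the start are printed for the receptors, 5′ to 3′ on the strand of the gene. Capitals mark GGAA, a core bound by ETS factors, or TTCC, its reverse complement. Tek lies at chr4:94739039-94739288 on the plus strand and Tie1 at chr4:118489850-118490099 on the minus strand.
Tek: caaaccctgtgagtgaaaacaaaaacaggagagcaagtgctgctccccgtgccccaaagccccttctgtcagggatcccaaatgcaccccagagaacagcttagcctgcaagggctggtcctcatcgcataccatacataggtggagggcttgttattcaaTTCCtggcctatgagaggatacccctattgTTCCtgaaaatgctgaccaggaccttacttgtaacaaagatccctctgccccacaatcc
Tie1: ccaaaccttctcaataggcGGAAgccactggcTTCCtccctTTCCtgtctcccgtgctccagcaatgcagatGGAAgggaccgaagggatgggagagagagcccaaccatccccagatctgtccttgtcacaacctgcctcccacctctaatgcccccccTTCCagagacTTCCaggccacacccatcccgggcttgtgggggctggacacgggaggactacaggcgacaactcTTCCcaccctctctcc
The Tie1 window held 7 matches, 2 as GGAA and 5 as TTCC, with a GC content of 60.4%, and the Tek window held 2, both as TTCC, with 51.2%. The Apln and Esm1 windows held 3 matches each. The longer string GGAAG or CTTCC, which overlaps the core, was found 6 times in the Tie1 window, 3 times in that of Apln and 0 times in those of Tek and Esm1. Of 32851 promoter windows of this length, 93.4% held GGAA and 64.1% GGAAG on either strand, and 16.6% held the hypoxia core ACGTG, which was in none of the 4 windows. A match is only a run of letters, and no match says only that these letters were not in the window.

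Blood and lymphatic endothelium of the same library were then set side by side, since they share a library and its handling. Median depths differed between the classes, at 8645, 7636, 4303.5 and 3979 UMIs per BEC-like cell and 5133, 5204.5, 3054 and 3212 UMIs per LEC-like cell. The log2 ratio of BEC-like over LEC-like levels was positive in all 4 libraries for 5 of the 8 genes (Tek, Aplnr, Esm1, Apln and Angpt1) and negative in all 4 for the other 3 (Tie1, Angpt2 and Angptl4). Of 10524 genes with at least 20 UMIs per library, 22.1% were higher in all 4 libraries and 29.4% were lower in all 4.

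For Tek the log2 ratio was 1.18 (interval 0.996 to 1.36), 1.56 (1.36 to 1.78), 0.73 (0.42 to 1.05) and 1.11 (0.74 to 1.5). Tie1 had ratios of -0.38 (-0.59 to -0.18), -0.22 (-0.42 to -0.0089), -1.17 (-1.36 to -0.98) and -1.04 (-1.25 to -0.83). The 2 receptors therefore differed between the classes in opposite directions in each library. Angpt2 had ratios of -1.27, -1.09, -1.08 and -0.91, all with intervals below 0. The ratios of Angpt1, from 0.89 to 1.98, rested on 8.69 to 13 CPM in BEC-like cells and on 10, 5, 4 and 5 UMIs in LEC-like cells. Their intervals held 0 in LNR (-0.081 to 3.36) and sham (-0.47 to 2.59). Angptl4 had an interval below 0 only in the SAR131675 library, at -1.60 (-2.46 to -0.71).

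Apln, Aplnr and Esm1 were almost absent from LEC-like cells. No Esm1 UMI was found there in any library. With the LEC-like cells of each library counted at 3 UMIs, BEC-like cells were 31.1-, 33.2-, 21.3- and 18.7-fold higher. The lower limits of the log2 ratios were 4.66, 4.75, 4.1 and 3.92. Aplnr had 3 UMIs in a single LEC-like cell of the SAR131675 library, for a log2 ratio of 5.77 (4.22 to 8.06), and none in the others. Counted at 3 UMIs there, BEC-like cells were 39.8-, 23.0- and 19.2-fold higher, with lower limits of the log2 ratio of 5.01, 4.21 and 3.95. Apln had 0, 0, 1 and 1 UMIs in LEC-like cells. BEC-like cells were 13.5- and 14.4-fold higher in the first 2 libraries at the same 3 UMIs, with lower limits of the log2 ratio of 3.45 and 3.53. In the LNR pair the log2 ratios were 4.67 (2.15 to 9.99) and 5.02 (2.52 to 10.3). The apelin receptor, its ligand and Esm1 thus separated blood from lymphatic endothelium far more widely than Tek did.

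**Figure D3:**
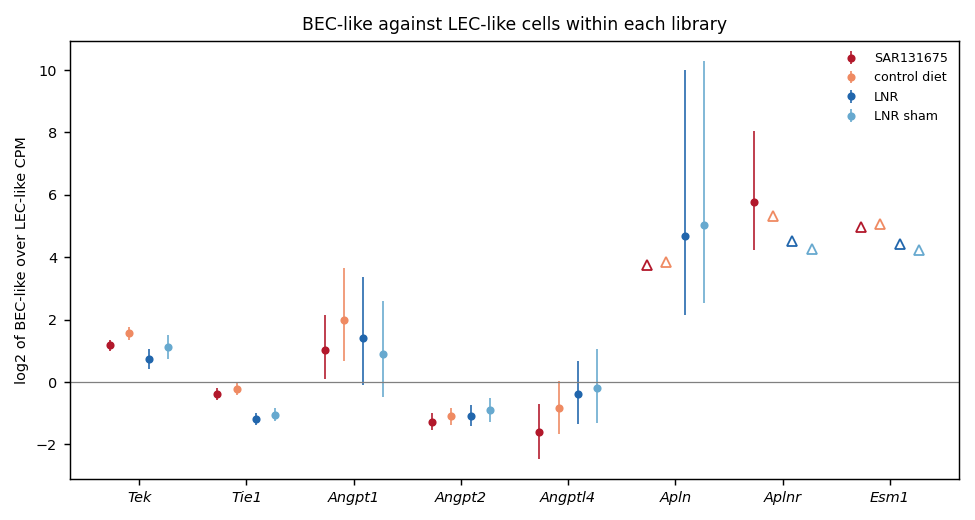
Log2 ratio of the BEC-like over the LEC-like level (vertical axis) for the 8 genes, with a point per library and bars for 95% intervals. Open triangles are ratios that count LEC-like cells without a UMI at 3 UMIs. Tie1, Angpt2 and Angptl4 lie below 0 in all 4 libraries and the other 5 genes above it.

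The split between Tek and Tie1 rested on cells named by cluster. When endothelial cells were instead picked one by one from their marker UMIs, the median ratio of Tek was 2.03, but those of Tie1, Angpt2 and Angptl4 turned positive at 0.55, 0.77 and 0.11, and that of Angpt1 turned to -0.053. Only 37.4% to 45.3% of the cells picked as lymphatic this way lay in the LEC-like cluster. Per library, 54 to 178 of them lay in mesenchymal clusters, 48 to 70 in macrophage clusters and 14 to 44 in keratinocyte clusters. The turned ratios therefore set BEC-like cells against a class that was mostly outside the LEC-like cluster. The ratio of Angpt1 also turned negative, to -1.28, without those groups of BEC-like cells whose leading genes held 2 or more markers of the same other cell type.

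Shares of cells with a UMI were compared at equal depth. Among BEC-like cells, a Tek UMI was found in 79.5%, 76.7%, 47.8% and 44.1%, and after each cell was thinned to 1500 UMIs in 40.8%, 41.7%, 21.9% and 18.6%. The thinned values left out the cells below that depth and rested on 728, 568, 688 and 704 cells. In LEC-like cells the thinned shares of Tek were 24.3%, 13.3%, 12.9% and 7.69%. For Tie1 the thinned shares were 15.8%, 18.7%, 22.1% and 19.0% in BEC-like cells and 20.3%, 23.1%, 40.4% and 32.5% in LEC-like cells, with intervals that overlapped in the SAR131675 pair and not in the LNR pair. Without thinning, the Tie1 shares were 56.6%, 56.9%, 47.6% and 43.0% in BEC-like cells and 51.9%, 57.5%, 67.9% and 56.9% in LEC-like cells, so that LEC-like cells were not higher in the SAR131675 library. Aplnr was found in 36.8%, 24.7%, 18.9% and 18.5% of BEC-like cells before thinning and in 12.9%, 9.33%, 8.87% and 5.68% after it. In keratinocytes it was found in 0.0937% to 0.133% before thinning and in 0% to 0.035% after it. Thinned shares of Esm1 were 4.40% to 7.39% and those of Apln 2.03% to 3.12%, so that most BEC-like cells had no UMI of either at this depth. Apln was found in 0 of 36, 0 of 42, 1 of 34 and 1 of 31 thinned cells with Esm1, against 3.18%, 2.66%, 1.99% and 3.12% of cells without it, a difference that was not detectable at this depth.

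BEC-like cells were clustered once more to see in which groups these genes lay. In the SAR131675 pair a venous group led by Samd5 (97 and 80 cells) stood at 195 and 133 CPM of Aplnr, 77.2 and 44.4 CPM of Apln, and 666 and 675 CPM of Tek. No Esm1 UMI was found there in either library, which allows up to 3.26 and 4.59 CPM at 3 UMIs. The group led by Selp, an adhesion molecule of venous endothelium, had Aplnr at 148 and 119 CPM, Apln at 39.5 and 23.5 CPM, and 0 and 1 UMIs of Esm1. Both venous groups thus combined the receptor and ligand of the apelin pathway with almost no Esm1.

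Esm1 lay elsewhere. A group led by Penk, which met no name (59 and 48 cells), stood at 413 and 427 CPM of Esm1 and held 250 of 439 and 193 of 327 of its UMIs in BEC-like cells. At the coarser resolution of 0.4, the group highest in Esm1, again led by Penk, had 282 and 229 cells and a level of 145.7 CPM, against 418.9 CPM for the smaller group over both libraries. Aplnr was at 127 and 151 CPM in this group, but Apln had only 5 and 1 UMIs. The arterial group led by Nebl (58 and 40 cells) had 0 UMIs of Aplnr and Apln in both libraries, which allows up to 5.45 and 8.34 CPM of each, and 2 and 0 UMIs of Esm1, while Tek stood at 558 and 411 CPM and Tie1 at 173 and 189 CPM. The arterial cells therefore had both Tie receptors but none of the apelin UMIs.

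In the LNR pair the groups fell in a like way. The venous group led by Col10a1 (147 and 146 cells) had Aplnr at 74.5 and 77.2 CPM, Apln at 28.2 and 13.4 CPM and 0 UMIs of Esm1 in both libraries, which allows up to 4.97 and 5.03 CPM. Besides the venous genes Sele, Ackr1 and Selp, its leading genes held Ibsp and Col2a1 from the osteoblast and cartilage lists. Esm1 was highest, at 164 and 209 CPM, in a group without a name led by Gm12002, Esm1 and Penk (157 and 149 cells). A group led by Gkn3 and Sema3g besides globin genes (56 and 68 cells), which had arterial markers but was left without a name, held 0 UMIs of Apln, Aplnr and Esm1, which allows up to 21.5 and 15.9 CPM of each in these small groups. The LNR pair also had a group named for sprouting markers, led by Ccer2 (35 and 29 cells), with Apln at 126 and 327 CPM, Aplnr at 265 and 178 CPM and Esm1 at 28.6 and 108 CPM. Apln was highest there of all groups of this pair, and it was also 1 of that group's 10 leading genes. The order of groups is a description, since clusters and levels come from the same cells.

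**Figure D4:**
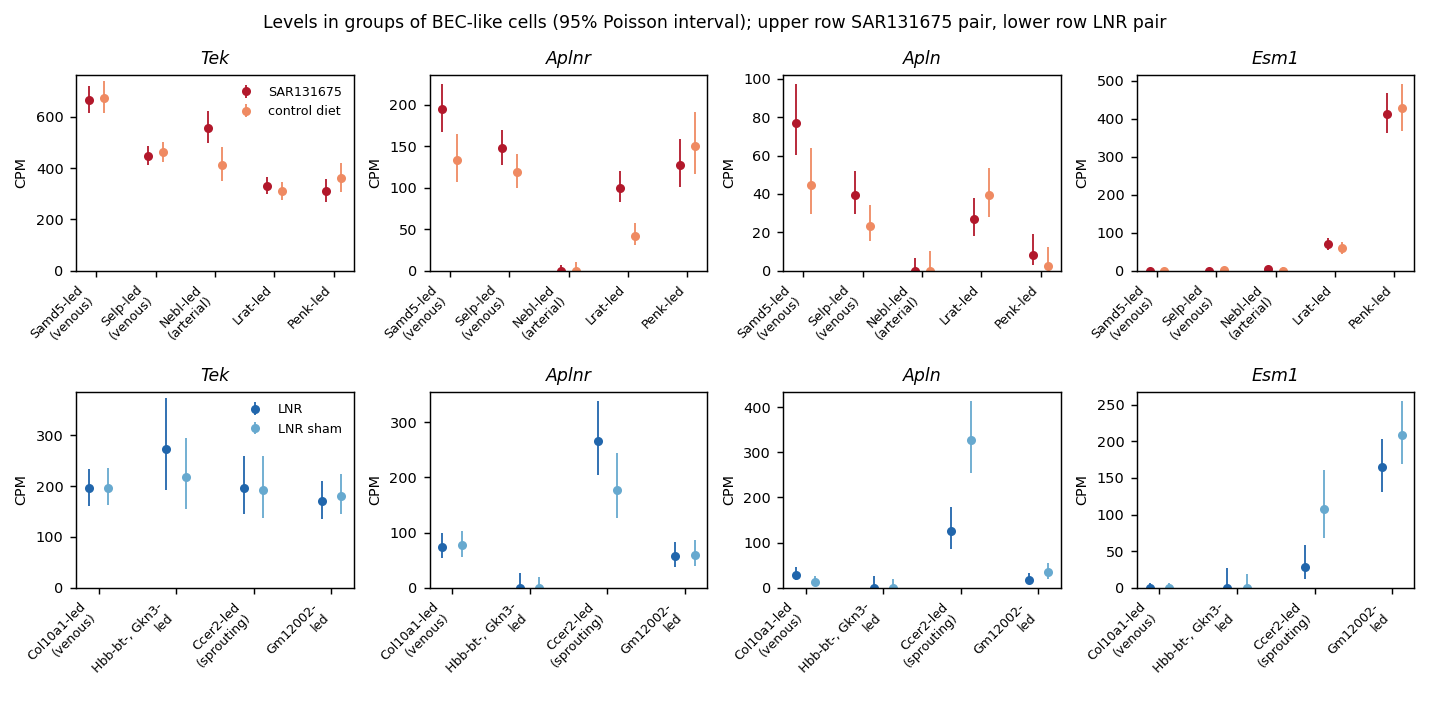
Level in CPM (vertical axes) of Tek, Aplnr, Apln and Esm1 in the groups of BEC-like cells, each named by its leading gene, for the SAR131675 pair (upper row) and the LNR pair (lower row), with a point per library and bars for 95% Poisson intervals. Esm1 is near 0 in the venous groups and highest in the groups led by Penk (413 and 427 CPM) and Gm12002 (164 and 209 CPM), which depends on how finely the cells are grouped (145.7 CPM at resolution 0.4 in the SAR131675 pair), and Apln is highest in the sprouting group led by Ccer2 (126 and 327 CPM).

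Mural cells were not uniform for the angiopoietins. In the SAR131675 pair a group led by Rgs16, Has2 and Il6 (125 and 91 cells) stood at 219 and 326 CPM of Angpt2, against 89.5 and 83.9 CPM in a smooth muscle group led by Hpse2, which was named after its values were seen. The matching group of the LNR pair, led by Ccl2, Rgs16 and Il6 (130 and 115 cells), stood at 179 and 185 CPM, against 44.7 and 36.8 CPM in a smooth muscle group led by Dct. The groups led by Rgs16 and by Ccl2 had Angptl4 at 44.0, 49.3, 19.3 and 31.4 CPM, above the mural average of 3.93 to 13.6 CPM. Angpt1 was at 142 and 116 CPM in the Rgs16 group of the SAR131675 pair, close to the mural average of 116 and 112 CPM.

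SAR131675 was compared with the control diet to see how these genes stood under inhibition of VEGFR3, the receptor that drives lymphatic growth. In BEC-like cells, the apelin receptor had the interval furthest from 0. Aplnr was at 105 CPM with SAR131675 and 73.3 CPM with the control diet (772 and 392 UMIs), a log2 ratio of 0.51 (0.33 to 0.69). Angpt2 stood at 41.2 and 53.5 CPM with a log2 ratio of -0.38 (-0.62 to -0.14), and Tie1 at 122 and 140 CPM with a log2 ratio of -0.20 (-0.34 to -0.058). Markers of the classes richest in Angpt2 were also lower in BEC-like cells with SAR131675, smooth muscle markers at 688 against 971 CPM, pericyte markers at 712 against 815 CPM and LEC markers at 32.5 against 77.6 CPM, and their part was not tested. Of the 8 genes, 1 differed by 1.5-fold or more, Angptl4 with 31 and 37 UMIs at -0.72 (-1.46 to 0.0068), whereas 10.9% of 13615 genes did so in these cells. This count depended on the cells and the averaging. Aplnr passed at 0.60 without cells called doublets by Scrublet and at 0.61 with a mean over each cell's own CPM, and Angptl4 did not pass with endothelial cells picked by marker UMIs (-0.11), when groups led by markers of other cell types were removed (-0.38) or when the upper cell limits were lifted (-0.14). Aplnr, Angpt2 and Tie1 kept their direction under each alternative tried, with ratios of 0.38 to 0.61, -0.46 to -0.28 and -0.32 to -0.14.

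The other receptors and ligands were close between the diets in the main clustering. Tek had a log2 ratio of 0.046 (-0.036 to 0.13), Esm1 -0.041 (-0.25 to 0.17), Apln -0.038 (-0.36 to 0.29) and Angpt1 0.097 (-0.37 to 0.57). Each of these moved beyond its interval and changed sign under an alternative choice of cells, as listed in the section on processing.

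The higher Aplnr was not carried by 1 cell, and its ratio differed between groups. The ratio was 0.53 without the cell with most UMIs in each library and 0.43 without groups led by markers of another cell type. It was 0.55 (0.17 to 0.93) in the Samd5 venous group, 0.31 (-0.011 to 0.64) in the Selp venous group, 1.24 (0.73 to 1.79) in the group led by Lrat and 2.47 (1.47 to 3.64) in the group led by Hbb-bt. In the Esm1-rich Penk group it was -0.24 (-0.73 to 0.25). Between these libraries the red cell markers of BEC-like cells stood at 593 and 1397 CPM, fibroblast markers at 426 and 173 CPM and basal keratinocyte markers at 1567 and 1237 CPM. The Hbb-bt group, led by red cell genes, had 83 against 9 Aplnr UMIs.

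Some Apln ratios within these groups rested on single cells, which were left out after the values were seen. In the Samd5 venous group the ratio was 0.80 (0.16 to 1.47), and 0.92 (0.21 to 1.68) without the cell with most UMIs in each library. In the Selp venous group it was 0.75 (0.051 to 1.48), but 0.17 (-0.64 to 1.00) without that cell, which held 21 of the 52 UMIs with SAR131675. In the Hbb-bt group it was -2.24 (-3.33 to -1.26), but -0.76 (-2.50 to 0.98) without a control diet cell that held 27 of 34 UMIs and the highest SAR131675 cell. Without groups led by markers of other cell types the ratio over BEC-like cells was 0.34.

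Outside the blood endothelium, Angpt2 was also lower with SAR131675 in mural cells, at 123 against 159 CPM and a log2 ratio of -0.37 (-0.54 to -0.20). Basal keratinocyte markers in mural cells stood at 1172 and 649 CPM and red cell markers at 1418 and 883 CPM, and their part was not tested. The Rgs16 group, the richest in Angpt2, had a ratio of -0.58 (-0.87 to -0.29), but the group led by Cst6 went the other way at 1.44 (0.49 to 2.53). No gene of the 3 with 20 UMIs in mural cells passed 1.5-fold, against 10.9% of all genes. In LEC-like cells, the class whose receptor SAR131675 targets, Tek stood at 174 and 129 CPM (274 and 210 UMIs) with a log2 ratio of 0.44 (0.17 to 0.70). Tie1, at -0.033, and Angpt2, at -0.20, had intervals that held 0, and none of the 4 genes measured there passed 1.5-fold, against 15.5% of all genes. RNA of other cell types in LEC-like cells also differed between these libraries, with suprabasal keratinocyte markers at 1053 and 3703 CPM and red cell markers at 1104 and 4513 CPM, and its part in these ratios was not tested.

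In mesenchymal cells Angpt1 was at 84.6 CPM with SAR131675 and 69.4 CPM with the control diet, a log2 ratio of 0.29 (0.22 to 0.36) and of 0.38 (0.30 to 0.46) in the Pi16 fibroblast cluster. Smooth muscle markers in mesenchymal cells stood at 147 and 98.5 CPM, pericyte markers at 143 and 173 CPM, basal keratinocyte markers at 889 and 717 CPM and macrophage markers at 10.7 and 6.96 CPM, and their part was not tested. Mesenchymal Tek was lower, at -0.17 (-0.26 to -0.072), but in the fibroblast cluster that held most of it the ratio was -0.052 (-0.15 to 0.044). Of 6 genes with 20 UMIs, 2 passed 1.5-fold, Apln at 0.59 (0.025 to 1.17) and Esm1 at 1.62 (0.88 to 2.43), against 10.8% of all genes. Both were at or below 1.51 CPM, and of the 74 Esm1 UMIs with SAR131675, which lay in 21 cells, 82.4% came from 10 cells. In keratinocytes, where all levels were below 3 CPM, 3 of the 8 genes passed 1.5-fold, against 12.3% of all genes. They were Angptl4 at 0.65 (0.46 to 0.84), Tek at 0.59 (0.25 to 0.93) and Aplnr at -0.71 (-1.71 to 0.28) over 17 and 22 UMIs. Within the keratinocyte clusters that had 20 UMIs, Angptl4 ratios were -0.21 to 0.47, all below 1.5-fold with intervals that held 0, and those of Tek -0.67 to 1.53. The class ratio of Angptl4 did not pass at resolution 0.4 (0.43) or when all 4 libraries were clustered together (0.40). The clusters richest in Angptl4 held more cells with SAR131675, 2477 against 1624 in the one led by Lgr5 (12.0 and 10.5 CPM) and 1108 against 412 in the one led by Krt25 (6.90 and 5.02 CPM). In sebaceous-like cells, the class richest in Angptl4, its ratio was 0.091 (-0.12 to 0.31). Of 3 genes with 20 UMIs there, 1 passed 1.5-fold, Apln at -0.78 (-1.37 to -0.20) over 45 and 60 UMIs, against 9.25% of all genes. Angpt1 in these cells was at 21.8 and 30.3 CPM, a ratio of -0.47 (-0.74 to -0.20). Red cell markers in sebaceous-like cells stood at 67.5 and 181 CPM, and their part was not tested.

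**Figure D5:**
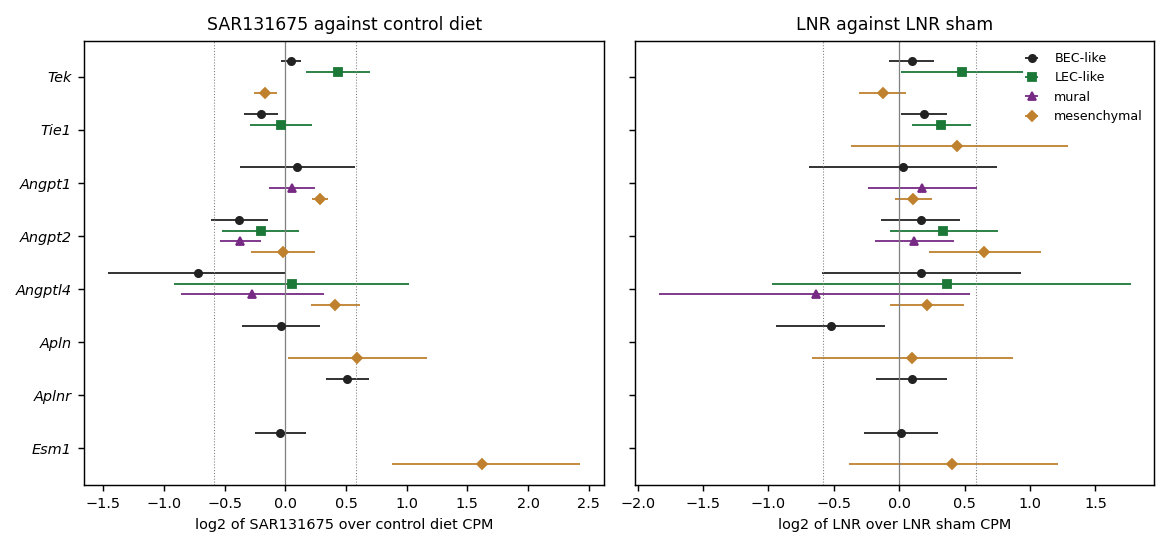
Log2 ratios of the 8 genes with 95% intervals (horizontal axes) in BEC-like, LEC-like, mural and mesenchymal cells, for SAR131675 over control diet (left) and LNR over sham (right), with dotted lines at 1.5-fold. In BEC-like cells Aplnr is highest on the left at 0.51 and Apln lowest on the right at -0.52.

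LNR was compared with sham to ask the same of lymph node removal. Tie1 in BEC-like cells stood at 148 and 130 CPM with a log2 ratio of 0.19 (0.016 to 0.36), and Tek at 143 and 134 CPM with a ratio of 0.095 (-0.078 to 0.27). Aplnr was at 57.8 and 54.2 CPM, a ratio of 0.094 (-0.18 to 0.37), and Esm1 at 53.5 and 52.9 CPM, a ratio of 0.016 (-0.27 to 0.30). None of the 8 passed 1.5-fold, against 8.93% of 11968 genes. This count depended on how the cells were chosen. At resolution 1.2, Angpt1 (1.52), Angptl4 (-0.71) and Apln (-0.79) passed, and with endothelial cells picked by marker UMIs, Tie1 (0.67), Angpt1 (0.63), Angpt2 (0.62) and Aplnr (0.60) passed. Of the cells picked as blood endothelial by marker UMIs, 27 of 947 in LNR and 197 of 1119 in sham lay in unnamed clusters. The part of these cells was not tested. Without the groups led by markers of other cell types, Angptl4 passed at -0.73 and Apln at -0.80, and without upper limits on genes and UMIs, Apln passed at -0.635. The red cell markers of these cells, at 1045 and 77.8 CPM, differed more than any of the 8 genes, and without the groups led by markers of other cell types Tie1 was at 0.048.

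Apln was the member furthest from 0 in these cells, and it rested on few cells. It stood at 21.3 and 30.6 CPM (84 and 123 UMIs for LNR and sham), with a log2 ratio of -0.52 (-0.94 to -0.11). One sham cell held 42 UMIs, and without the cell with most UMIs in each library the ratio was -0.12 (-0.60 to 0.35). That cell lay in the sprouting group, where Apln was at 126 against 327 CPM (31 and 70 UMIs), a ratio of -1.37 (-2.03 to -0.74), and without the highest cells -0.73 (-1.64 to 0.15). Esm1 had a ratio of -1.91 (-3.38 to -0.65) over 7 and 23 UMIs in this group, which came from 3 and 5 cells, and of -2.36 (-4.81 to -0.50) without the highest of them. Aplnr in the same 35 and 29 cells was at 265 against 178 CPM, a ratio of 0.58 (-0.021 to 1.2).

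In LEC-like cells Tie1 stood at 333 and 266 CPM with a log2 ratio of 0.32 (0.098 to 0.55), and Tek at 86.4 and 62.1 CPM (103 and 66 UMIs) with a ratio of 0.48 (0.016 to 0.94). The 10 highest cells of LNR and of sham held 34% and 47% of these Tek UMIs. Angpt2 had a ratio of 0.34 (-0.072 to 0.75). None of the 4 genes measured in LEC-like cells passed 1.5-fold, which 14.2% of all genes did. Suprabasal keratinocyte markers in these cells stood at 831 and 1687 CPM and red cell markers at 612 and 378 CPM, and their part in these ratios was not tested. In mesenchymal cells 1 of 7 genes passed 1.5-fold, Angpt2 with 130 and 73 UMIs at 0.65 (0.23 to 1.08), against 6.8% of all genes. Without the cell with most UMIs in each library, 1 of which held 11, its ratio was 0.56 (0.13 to 1.01) and no longer passed. Red cell markers in mesenchymal cells stood at 828 and 200.3 CPM and macrophage markers at 52.3 and 23.1 CPM, and their part was not tested. Mural Angpt2 and Angpt1 had ratios of 0.12 and 0.18 with intervals that held 0, and 1 of 3 genes passed 1.5-fold there, Angptl4 with 12 and 16 UMIs at -0.63 (-1.84 to 0.54), against 11.7% of all genes. In keratinocytes 1 of 7 genes passed, Apln with 53 and 34 UMIs at 0.78 (0.13 to 1.45), against 6.09% of all genes. In macrophage-like cells 2 of 3 passed, Angptl4 with 14 and 8 UMIs and Tek with 22 and 9, both with intervals that held 0, against 9.47% of all genes. In sebaceous-like cells only 1 gene had 20 UMIs, Angptl4 at 37.3 and 41.0 CPM, and it did not pass, against 9.08% of all genes.

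The values of Tek in LEC-like cells, given for each experiment on its own, were 0.44 with SAR131675 and 0.48 with LNR, and those of Aplnr in BEC-like cells 0.51 and 0.094. Ratios between conditions in LEC-like cells were not recomputed under the alternatives. No test of a difference between the experiments was made. Median log2 ratios over all genes lay between -0.04 and 0.03 in every class of both pairs.

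The partners of these genes were described from lists of the pathways. Of 7 genes of the angiopoietin and Tie pathway, 5 had 20 UMIs in BEC-like cells of each pair. With SAR131675, 1 passed 1.5-fold, Svep1, a large matrix protein that binds Tie1, with 21 and 10 UMIs and an interval that held 0, beside the 10.9% of all genes given above. Of the 5 intervals, 3 lay below 0 and none above it, where 20.7% of all genes had an interval without 0. Svep1 was far higher in mesenchymal cells, at 166 and 197 CPM against 2.84 and 1.87 CPM in BEC-like cells, whose fibroblast markers stood at 426 and 173 CPM. With LNR, 1 passed, again Svep1 but in the other direction, with 20 and 43 UMIs and a log2 ratio of -1.08 (-1.92 to -0.28), beside 8.93% of all genes. Here 2 of the 5 intervals lay below 0 and none above it, where 9.22% of all genes had an interval without 0. Ptprb, the phosphatase that dampens Tie2, was at 1205, 1196, 555 and 549 CPM in BEC-like cells and 228, 179, 116 and 93.2 CPM in LEC-like cells, higher in BEC-like cells of every library as Tek was. Foxo1, a transcription factor restrained by Tie2 signaling and known to drive Angpt2, was at 284, 314, 110 and 112 CPM in BEC-like cells, and its ratio with SAR131675 was -0.15. Klf2, a factor induced by blood flow, was at 759, 833, 879 and 1001 CPM.

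Of 5 apelin partners, 3 had 20 UMIs in BEC-like cells, and none passed 1.5-fold in either pair, beside 10.9% and 8.93% of all genes. Arrb1, an arrestin that binds active receptors, was at 81.1 against 98.6 CPM with SAR131675, a log2 ratio of -0.28. Of the 3 intervals with SAR131675, 1 lay below 0 and none above it, beside 20.7% of all genes with an interval without 0. Apela, the second ligand of Aplnr, was at or below 2.65 CPM. Furin, which can process the apelin precursor, was at 178, 176, 226 and 253 CPM in mesenchymal cells.

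Of 8 genes related to Angptl4 or its lipase targets, 4 had 20 UMIs in BEC-like cells of the SAR131675 pair and 5 in the LNR pair. One passed 1.5-fold with SAR131675, Angptl7, with 17 and 6 UMIs, and none passed in the LNR pair, beside 10.9% and 8.93% of all genes. Angptl7 was far higher in mesenchymal cells, at 195 and 315 CPM, and the fibroblast markers of BEC-like cells stood at 426 and 173 CPM in the same libraries. Lpl, the lipase that Angptl4 inhibits, was counted in mural cells at 219, 215, 153 and 131 CPM and in sebaceous-like cells at 158, 144, 181 and 199.7 CPM. It was also counted in macrophage-like cells at 212, 173.5, 170.3 and 131 CPM and in mesenchymal cells at 72.0 to 96.9 CPM. Gpihbp1, which anchors this lipase to capillaries, was at 31.6, 27.9, 62.1 and 72.3 CPM in BEC-like cells. LEC-like cells were higher in every library, at 42.0, 34.4, 99.8 and 83.8 CPM. The interval of the log2 ratio of BEC-like over LEC-like levels lay below 0 only in LNR (-1.01 to -0.356). Of 12 sprouting and VEGF genes, 11 were measured with SAR131675, where 1 passed 1.5-fold, the chemokine receptor Cxcr4 with 80 and 38 UMIs at 0.61 (0.034 to 1.21), and 12 with LNR, where none passed, beside the same shares of all genes. Dll4, the Notch ligand of tip cells, had a ratio of -0.30 with SAR131675. Of the 11 intervals with SAR131675, 3 lay below 0 and 1 above it, beside 20.7% of all genes with an interval without 0.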

How the data were processed

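The deposited values are raw counts of UMIs for each gene in each barcode of 4 single-cell 3' libraries, with no barcode under 500 UMIs. The labels name Cell Ranger 6.1.2 and GRCm39 for all, whereas the matrix headers give 6.1.2 for the LNR pair and 8.0.1 for the SAR131675 pair, so levels are compared within pairs. Cells with 200 to 5500 genes, at most 30000 UMIs and at most 10% mitochondrial UMIs were kept, the study's limits for the LNR data.

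Each pair was clustered on 2000 variable genes without the 8 genes, with counts scaled to 10000 per cell, 30 principal components, 20 neighbors and Leiden resolution 0.7 (Python 3.11.15, scanpy 1.11.5, igraph 0.11.9). A cluster was named when its markers scored at least 0.3, every rival scored below 0.75 of that and at least 3 markers were found in 5% of its cells. No other type could have more markers among the 10 leading genes. Where all rivals were of the same family, such as pericytes and smooth muscle cells, the cluster took the family name. The mural clusters and some mesenchymal and keratinocyte clusters were named in this way. BEC-like and mural cells were clustered once more, and groups with 2 or more markers of the same other type among their 10 leading genes stayed without a name. In unnamed clusters lay 3.8% to 11.8% of cells per library.

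Named genes were the 8 genes, the genes of the pathway lists and the 3 genes most like each of the 8. Genes with at least 20 UMIs over a pair were compared, past 1.5-fold being the call. The genes and lists were chosen with earlier results of these data known. Doublets were left in, since Scrublet called 0.907% to 7.41% of cells where 15.9% to 23.3% were expected. Intervals are exact at 95%: Poisson for levels, conditional for ratios and Clopper-Pearson for shares. The ratios were tested on simulated counts. Alternatives changed the cell limits, resolution, joint clustering, doublets, the averaging over cells and the choice of endothelial cells. Values of some genes and groups are not reported here.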

Additional observations from a re-analysis of the deposited data

How the results depend on the processing

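Each condition has 1 library, so that no replicate could be left out and counting error alone is covered. No paired analysis was possible because no result comes from a test across samples. The SAR131675 ratios in BEC-like cells moved beyond their intervals for Angpt1 (-0.443) and Apln (0.338) without groups led by markers of other cell types, for Tek (-0.0435) with endothelial cells picked by marker UMIs, and for Esm1 (0.493) without upper limits on genes and UMIs. In keratinocytes Angptl4 moved at resolution 0.4 (0.428) and with all 4 libraries clustered together (0.396). The LNR ratios moved for Angpt1 (1.52), Angptl4 (-0.713) and Esm1 (-0.46) at resolution 1.2, for Angpt2 (0.619), Tek (0.56), Tie1 (0.673), Apln (-0.0652), Aplnr (0.598) and Esm1 (0.505) by marker UMIs, and for Angptl4 (-0.73) and Esm1 (-0.493) without the groups led by other types. The removal of those groups and of the highest cell was chosen after seeing the data.

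The median BEC-like over LEC-like ratio turned by marker UMIs for Angpt1 (-0.0533), Angpt2 (0.765), Angptl4 (0.109) and Tie1 (0.546), and without the groups led by other types for Angpt1 (-1.28). It moved by marker UMIs for Tek (2.03), Apln (4.29) and Esm1 (5.4), and without those groups for Angptl4 (-1.45), Apln (4.08) and Esm1 (5.12). Without upper limits it moved for Angpt1 (2.07), Angpt2 (-0.916), Apln (4.2) and Esm1 (5.15), and for Angpt1 at resolution 1.2 (0.0776) and with a mean per cell (1.78). The cause was not tested.

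Median BEC-like levels in CPM moved at resolution 1.2 for Angpt1 (6.981), Tie1 (171.2) and Apln (30.69), after Scrublet for Angpt2 (54.71), Tie1 (148.6) and Esm1 (65.36), without limits for Tie1 (119.5) and with a mean per cell for Tie1 (151.4) and Apln (21.89). In venous groups, levels moved for Tek of the SAR131675 pair with a mean per cell (564.3) and Esm1 without limits (5.068), and in the LNR pair for Angptl4 (7.148) and Tie1 (180.7) at resolution 0.4, Tie1 after Scrublet (173.6) and Apln without limits (12.77). The group highest in Apln moved to 43.99 at resolution 0.4 in the SAR131675 pair and to 130.1 with a mean per cell in the LNR pair. The group highest in Esm1 moved to 510.8 without limits, 333.4 after Scrublet and 145.7 at resolution 0.4 in the SAR131675 pair and to 143.9 at resolution 0.4 in the LNR pair. Thinning lowered the median share of BEC-like cells with a UMI to 1.25% for Angpt1, 5.48% for Angpt2, 0.627% for Angptl4, 31.3% for Tek, 18.9% for Tie1, 2.74% for Apln, 9.1% for Aplnr and 4.95% for Esm1. Within their limits stayed 87 of 93 recomputed ratios for SAR131675, 82 of 93 for LNR, 47 of 64 between BEC-like and LEC-like cells, 39 of 48 levels and 76 of 88 levels in groups. With at least 50 UMIs required, 657 and 400 genes passed 1.5-fold in BEC-like cells of the SAR131675 and LNR pairs.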

Other observations

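Genes with the pattern most like each of the 8 were ranked by Pearson's r of log2(CPM + 1) over 64 combinations of 21 named classes and the 4 libraries, among 14695 genes. The points share libraries and depth, and the values are a description with no p. Tie1 was closest to Ccm2l (r = 0.976), Dll4 and Podxl (both 0.971), which are endothelial genes. Aplnr was closest to Sox17 (0.953), Lhx6 (0.95) and Nr5a2 (0.949), Esm1 to Nr5a2 (0.888), Ptprr (0.88) and Sele (0.878), and Apln to Sele (0.789), Lhx6 (0.776) and Nr5a2 (0.764). Lhx6 and Nr5a2 are transcription factors and Sele encodes the adhesion molecule E-selectin. Angpt2 was closest to Gucy1a1 (0.953) and Gucy1b1 (0.928), the subunits of the nitric oxide receptor of mural cells, and to the connexin gene Gja4 (0.896).

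Tek was closest to Unc45b (0.88), Meox1 (0.866) and Shank3 (0.863), and Angpt1 to Srpx (0.851), Twist2 (0.84) and Vipr2 (0.826). Angptl4 had the lowest leading value, with Eci2, an enzyme of fatty acid oxidation, at 0.746 and Bhlhb9 and Pgrmc1 at 0.727. Among the 8 genes themselves, Aplnr and Esm1 had an r of 0.89, Apln and Esm1 0.825, Tek and Tie1 0.785, Apln and Aplnr 0.75, and Angpt2 and Tie1 0.711. With 10 added to the CPM in place of 1, none of the 3 genes named for Angpt1 and 1 of 3 for Tek, Tie1 and Esm1 were named again.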
